A study of Mus musculus with 18 samples.

Results

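The embryonic pylorus at E14.5, the short segment between stomach and duodenum, was compared with both of its neighbours, to ask which genes stood above or below the levels found on either side. The comparison used 8 samples from 9 arrays, of 17 samples from 18 arrays in the whole series, and all 18193 genes measured. The samples were chosen by tissue and age alone: stomach next to the pylorus (n = 3), pylorus (n = 3) and duodenum (n = 2) of C57Bl/6J embryos at E14.5, with no treatment, transgene or mutation given in the labels. For each gene, the average of the stomach mean and the duodenum mean was subtracted from the pylorus mean. This difference is called the contrast here.

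Per the labels, the series profiled these tissues by Affymetrix array at E14.5 and E16.5. Tissue of 174 embryos at E14.5 was dissected and pooled at random into 3 pools per tissue, so each sample is a mixture of many embryos and the spread between samples is that between pools. The pylorus is where the thick smooth muscle of the sphincter forms and where gastric epithelium gives way to intestinal epithelium. Its mesenchyme expresses transcription factors, among them Nkx2-5, Gata3, Six2 and Sox9, that are known to be needed for a normal sphincter. In the mouse fetus the epithelium on the stomach side takes a gastric programme and that on the duodenal side an intestinal programme, while neurons and glia derived from the neural crest spread through the wall along the whole gut.

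Levels are log2 intensities, on which a difference of 1 is a 2-fold difference. They compare samples for a given gene and do not rank genes against each other. Values of the 8 samples are given in the order stomach replicates 1 to 3, pylorus replicates 1 to 3, then the first duodenal sample and duodenum replicate 3. The first duodenal sample is the mean of arrays 1 and 2 of that group, whose difference had an SD of 0.0798 over probe sets above log2 8, against 0.166 to 0.486 for the other 17 replicate pairs. Contrasts are given ± SE, group levels as mean ± SD, and a gene is called when its limma adjusted p is under 0.05 over all genes.

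Pylorus replicate 1 stood apart from the other pyloric pools. The SD of its difference from replicates 2 and 3 was 0.480 and 0.439, against 0.166 between those 2 pools. The mean level of 43 intestinal absorptive genes was 10.21 in replicate 1 against 7.80 and 8.68 in the others, and that of 30 gastric epithelial genes was 6.96 against 7.80 and 7.62. For 26 mesenchyme regulators it was 9.16 against 9.64 and 9.61. The main counts over all genes are therefore given with all 8 samples and again without pylorus replicate 1. Counts for gene lists are for all 8 samples unless another fit is named. Marker genes were checked against the tissue labels. Cdx2, which sets intestinal identity, was at 6.09 ± 0.25 in stomach, 9.82 ± 0.35 in pylorus and 9.97 ± 0.33 in duodenum. Sox2, a foregut epithelial factor, was at 11.83 ± 0.02 in stomach, at 8.66, 10.77 and 10.65 in the pyloric pools and at 8.86 and 8.98 in duodenum. By this marker pylorus replicate 1 lay below both duodenal samples, and replicates 2 and 3 lay between the tissues. Acta2, smooth muscle actin, and Cdh1, the epithelial cadherin, had contrasts of 0.02 ± 0.10 and -0.06 ± 0.11 and were not called. All samples are bulk tissue, in which fewer cells of a type and less RNA per cell cannot be told apart.

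The pylorus left the range between its neighbours in both directions. By distance beyond the nearer neighbour, the genes furthest above it were the sphincter mesenchyme factors Gata3 (2.76) and Nkx2-5 (2.49), the membrane peptidase Mme (2.20), Cnmd (2.10) and the BMP antagonist Grem1 (1.17), and genes of enteric neurons made up the largest listed group below it. The contrast was called for 149 genes (0.819% of genes tested), 65 higher (0.357%) and 84 lower (0.462%), and 1524 genes had an unadjusted p under 0.05. Of the 149, 43 had a pyloric mean above both neighbours (0.236%), 75 had one below both (0.412%) and 31 lay inside the range. Over all genes, called or not, the pyloric mean was above both neighbours for 18.7% and below both for 39.0%. The plot of the difference from each neighbour shows the called genes in these 3 places.

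**Figure D1:**
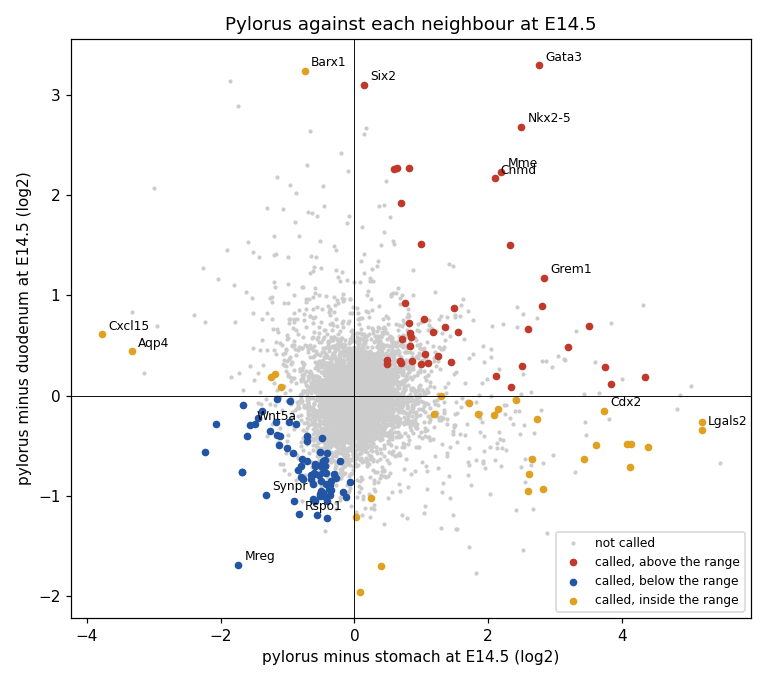
Each point is 1 of 18193 genes at E14.5; the x axis gives pylorus minus stomach and the y axis pylorus minus duodenum, both as log2 differences of group means. The 43 called genes above both neighbours (red) are in the upper right, the 75 below both (blue) in the lower left, and the 31 called inside the range (orange) in the other corners or near an axis, where the pylorus is close to a neighbour or between them.

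A called contrast with a pyloric mean outside the range does not by itself show a difference from the nearer neighbour, because a gene that differs greatly from only the further neighbour can be called too. Among the 43 genes the distance beyond the nearer neighbour had a median of 0.60 and was at least 0.5 for 24 and at least 1 for 6. Among the 75 the median was -0.46, with at least 0.5 below for 31 and at least 1 below for 1, Mreg. In 23 of the 43 and 57 of the 75 no pyloric sample overlapped with any neighbouring sample, whereas over all genes this held for 1.47% above and 3.75% below. A stricter test, called the range test here, asked for a difference from each neighbour in the same direction and took the larger of the 2 limma p-values. It called 3 genes (0.0165%), Nkx2-5, Gata3 and Cnmd, all above the range, and 326 genes had an unadjusted p under 0.05 in it.

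Without pylorus replicate 1 the balance turned towards genes above the range. The contrast was then called for 264 genes (1.45%), of which 171 lay above the range (0.940%) and 55 below it (0.302%). Of the genes called above, 30 were shared, which is 69.8% of the 43 and 17.5% of the 171. Below the range 41 were shared, 54.7% of the 75 and 74.5% of the 55. The range test called 21 genes (0.115%), 20 above the range and 1 below it, Mreg. The pyloric mean over all genes lay above both neighbours for 24.1% and below both for 35.6%. No overlap between pyloric and neighbouring samples was seen in 157 of the 171 and 48 of the 55, and over all genes in 7.46% and 9.56%, shares that grow as a sample is removed.

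**Figure D2:**
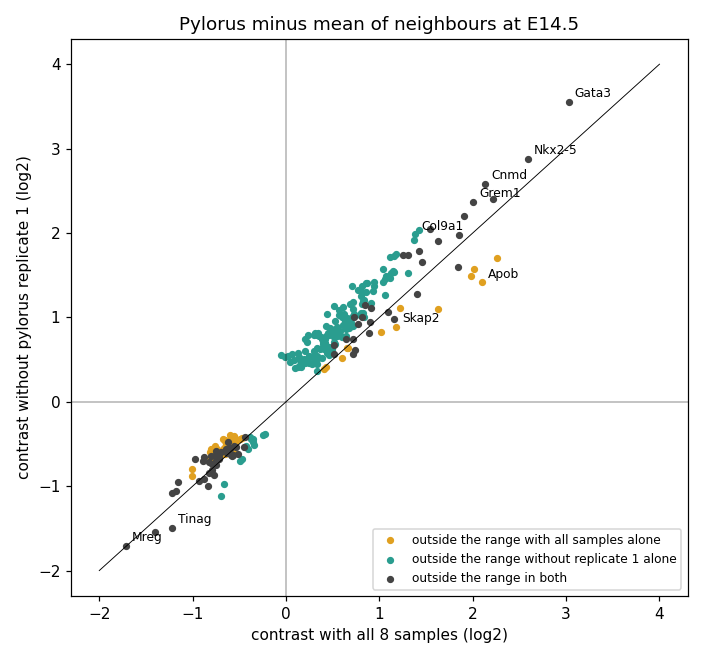
The contrast of each gene called outside the range in either fit, with all 8 samples (x axis) and without pylorus replicate 1 (y axis), both in log2 units; the line marks equal values. Green points are genes outside the range in the second fit alone. Those above the range, such as Col9a1, lie above the line, so their contrasts were larger once replicate 1 was left out. Rnf43 and Cltrn, called below the range in that fit alone, lie below the line. Gata3, Nkx2-5, Cnmd and Grem1 were called in both fits.

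Nkx2-5, Gata3 and Cnmd were the genes past the range test, and the promoter sequences of these 3 are shown because they rose together in the same tissue. The windows are RefSeq's for assembly GRCm38.p6 and run from 250 bases before the transcription start to 50 after it, written 5′ to 3′ along the gene. They lie at chr17:26841516-26841815 on the minus strand for Nkx2-5, chr2:9878551-9878850 on the minus strand for Gata3 and chr14:79662134-79662433 on the minus strand for Cnmd. Capitals mark GATAA, the core letters bound by GATA factors, or AAGTG, those bound by NKX2 factors, searched on both strands.
Nkx2-5: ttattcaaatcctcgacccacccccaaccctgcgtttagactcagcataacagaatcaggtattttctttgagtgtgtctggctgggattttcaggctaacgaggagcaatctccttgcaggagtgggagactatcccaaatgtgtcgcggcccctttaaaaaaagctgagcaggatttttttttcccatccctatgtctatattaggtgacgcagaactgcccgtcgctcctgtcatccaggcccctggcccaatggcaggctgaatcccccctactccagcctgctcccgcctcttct
Gata3: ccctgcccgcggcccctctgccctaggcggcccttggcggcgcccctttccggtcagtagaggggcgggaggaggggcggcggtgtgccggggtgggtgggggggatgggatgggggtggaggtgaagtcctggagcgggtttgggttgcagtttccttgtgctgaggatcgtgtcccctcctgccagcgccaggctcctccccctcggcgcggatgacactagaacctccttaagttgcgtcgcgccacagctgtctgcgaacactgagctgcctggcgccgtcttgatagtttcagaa
Cnmd: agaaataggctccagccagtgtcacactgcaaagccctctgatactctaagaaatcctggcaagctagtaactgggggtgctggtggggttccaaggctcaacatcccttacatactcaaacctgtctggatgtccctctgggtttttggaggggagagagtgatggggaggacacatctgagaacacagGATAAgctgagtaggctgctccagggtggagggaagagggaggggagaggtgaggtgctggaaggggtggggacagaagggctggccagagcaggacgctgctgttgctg
GATAA was found 1 time, in the Cnmd window, and AAGTG in 0 of the 3 windows. These 5-base words are common: GATAA occurred in 25.4% and AAGTG in 46.4% of all 32851 promoter windows of the same length. Among windows of the genes called above the range, 22.5% and 42.5% of 40 held them, and among those of the genes called below it, 11.3% and 31.0% of 71. A match is a description of the letters, and a window without a match shows only that these letters are not in it. The GC content of the 3 windows was 51.7% for Nkx2-5, 67.3% for Gata3 and 56.0% for Cnmd.

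The homeodomain factor Nkx2-5 was the gene with the firmest position above the range. Its level was 7.42, 7.33 and 7.43 in stomach, 9.31, 10.19 and 10.16 in pylorus, and 7.11 and 7.30 in duodenum. Every pyloric pool stood above every neighbouring sample, with replicate 1 the lowest of the 3. The contrast was 2.59 ± 0.16 (limma adjusted p = 1.49e-06, range test 1.84e-05) and 2.88 ± 0.10 without replicate 1. Nkx2-5 passed the range test whichever E14.5 sample was left out. Nkx2-5 is also expressed in the early spleen, which develops beside the stomach. Tlx1, a defining factor of the spleen primordium, was at 5.70, 5.92 and 6.06 in stomach, 5.94, 5.93 and 5.82 in pylorus, and 5.80 and 6.19 in duodenum. Its contrast was -0.05 ± 0.10 and the tissues overlapped. Over the 13 mesothelium and spleen genes, Nkx2-5 among them, the mean level was 8.40, 9.20 and 9.09 in pylorus. In stomach it was 8.53, 8.74 and 8.78, and in duodenum 8.74 and 8.89. The median contrast of this list was -0.03, and 0.27 without pylorus replicate 1. Whether spleen tissue was present in the pyloric pools was not tested.

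The zinc finger factor Gata3 showed the greatest contrast of the genes above the range. It was at 5.86, 5.85 and 5.63 in stomach, at 7.48, 8.97 and 9.16 in pylorus and at 5.02 and 5.46 in duodenum. The pyloric pools again lay above all others, although replicate 1 was well under the other 2. The contrast was 3.03 ± 0.31 (limma adjusted p = 0.000341, range test 0.00828), or 3.56 ± 0.22 without replicate 1.

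Cnmd encodes chondromodulin, a membrane glycoprotein of cartilage that inhibits vessel growth. Its level was 5.27, 5.48 and 5.14 in stomach, 6.49, 7.90 and 7.79 in pylorus, and 5.27 and 5.18 in duodenum. No neighbouring sample reached the lowest pyloric pool. The contrast was 2.13 ± 0.26 (limma adjusted p = 0.00103, range test 0.0381) and rose to 2.58 ± 0.17 without replicate 1. Gata3 and Cnmd stayed called on the contrast when any sample was left out, but passed the range test only in the fit without pylorus replicate 1 among those 8 fits. Col2a1, the main collagen of cartilage, was at 6.75 ± 0.20, 6.69 ± 0.07 and 7.04 ± 0.41 in stomach, pylorus and duodenum, with a contrast of -0.21 ± 0.13. Of 27 cartilage and tendon genes, 1 was called with all samples, Cnmd, with a list median of -0.05 against -0.04 over all genes. Without replicate 1 there were 3, the others being Col9a1 and the tendon factor Scx. Over all genes 0.236% were called above the range with all samples and 0.940% without replicate 1.

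The list of pyloric and stomach mesenchyme regulators held 26 measured genes, of which 3 were called above the range, Nkx2-5, Gata3 and Six2, and 1 inside it, Barx1. Over all genes 0.236% were called above the range. Without replicate 1, 4 of the 26 were called above it, the added gene being Isl1, against 0.940% of all genes. None was called lower in either fit, and the list median was 0.03 with all samples. Six2, a homeobox factor of mesenchymal progenitors, was at 9.93, 9.59 and 9.90 in stomach, 9.39, 10.30 and 10.17 in pylorus and 6.61 and 7.10 in duodenum. Its contrast of 1.62 ± 0.19 (limma adjusted p = 0.000769) came from the duodenal side, since stomach and pylorus overlapped and the means differed by 0.15. Barx1, which directs stomach mesenchyme, had levels of 12.63, 12.32 and 12.45 in stomach, 11.06, 12.08 and 12.03 in pylorus and 8.39 and 8.58 in duodenum. It was below every stomach sample in the pylorus and still far above duodenum, with a contrast of 1.25 ± 0.21 (limma adjusted p = 0.0105, and 0.0722 without pylorus replicate 3).

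For other regulators pylorus replicate 1 moved the value or the call. Isl1, a LIM homeodomain factor, was at 11.75, 12.05 and 11.77 in stomach, 10.45, 12.22 and 12.30 in pylorus and 9.21 and 9.26 in duodenum. Replicate 1 was below all stomach samples and the other pyloric pools above them. The contrast was 1.11 ± 0.30 (limma adjusted p = 0.119) with all samples and 1.71 ± 0.11 (limma adjusted p = 1.17e-06) without replicate 1, which added Isl1 to the genes above the range. Its difference from the stomach was then 0.40 and not called (limma adjusted p = 0.0999). Sox9, a factor of the sphincter, had a contrast of -0.10 ± 0.19, and 0.12 ± 0.19 without replicate 1. Nkx2-3, a factor of intestinal mesenchyme, was at 11.45 in pylorus replicate 1, near the duodenal 11.31 and 11.25, and at 9.87 and 10.14 in the other pools. Bmpr1b, a BMP receptor from the BMP and activin list, was at 7.73, 9.34 and 9.25 in pylorus, with a contrast of 0.57 ± 0.27, or 1.09 ± 0.14 inside the range without replicate 1 (limma adjusted p = 0.00103). The levels by sample of 12 genes show where replicate 1 fell in each.

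**Figure D3:**
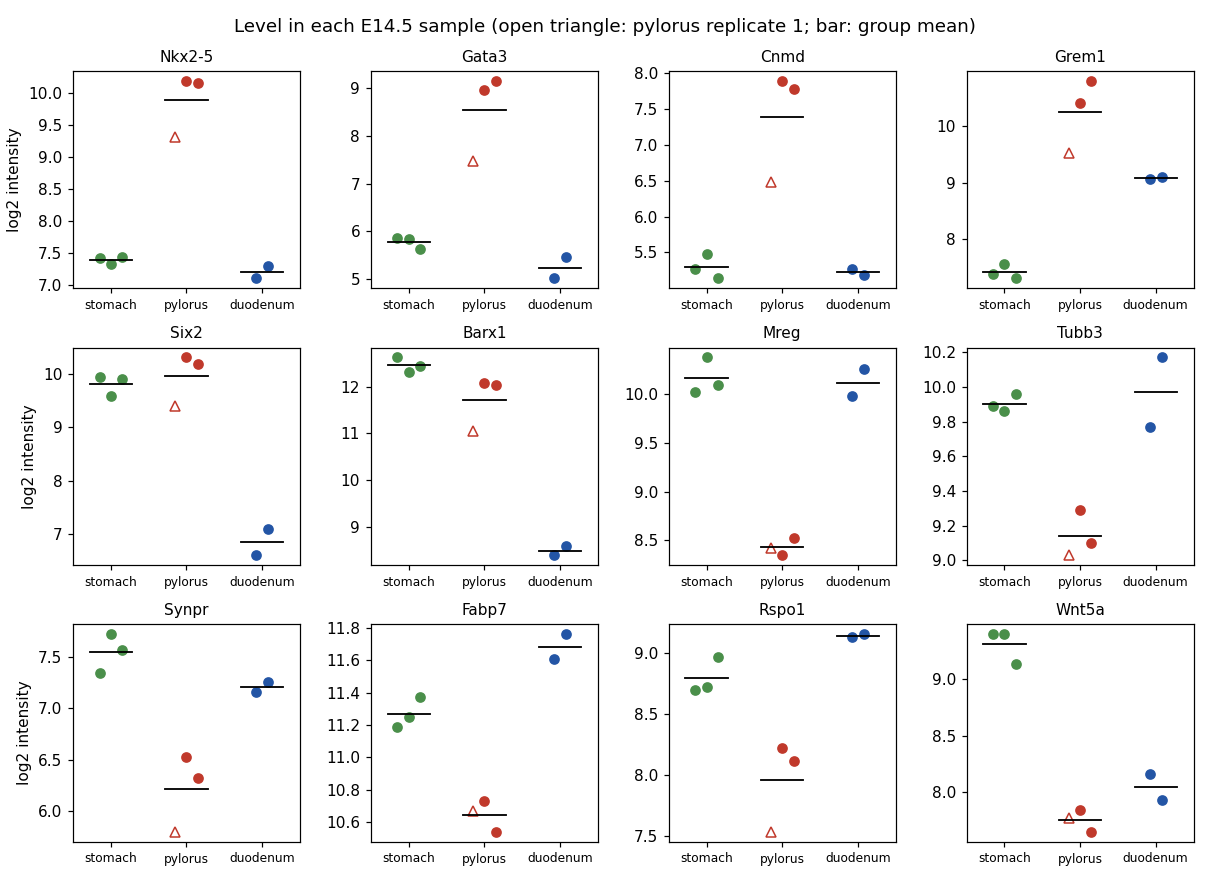
Log2 intensity of 12 genes in each E14.5 sample of stomach (green), pylorus (red) and duodenum (blue); bars are group means, the open triangle is pylorus replicate 1, and each panel has its own axis. Nkx2-5, Gata3, Cnmd and Grem1 have all pyloric pools above the neighbours, Mreg, Tubb3, Synpr, Fabp7, Rspo1 and Wnt5a have all below, and Six2 and Barx1 are close to the stomach.

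Among secreted signals, Grem1, an inhibitor of BMP ligands, was the single member of 28 BMP and activin genes called with all samples. It stood at 7.37, 7.55 and 7.30 in stomach, 9.52, 10.41 and 10.81 in pylorus and 9.05 and 9.09 in duodenum. Each pyloric pool exceeded each duodenal sample, the nearer neighbour. The contrast was 2.01 ± 0.29 (limma adjusted p = 0.00379), 1.17 beyond the duodenum, though the range test did not call it (adjusted p = 1). Bmp4, a ligand that Grem1 binds, had a contrast of 0.38 ± 0.24 and overlapping samples. The list median was 0.05. Without replicate 1, 2 of the 28 were called above the range, Grem1 and Gdf10. Over all genes 0.236% were called above it with all samples and 0.940% without replicate 1.

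Genes of the Wnt pathway were called in both directions: 2 of 39 below the range and 1 higher inside it, with a list median of -0.11. Over all genes 0.412% were called below the range. Without replicate 1, 2 of the 39 were again called below it, Wnt5a and Dkk1, against 0.302% of all genes. Wnt5a, a ligand of non-canonical Wnt signalling, was at 9.40, 9.40 and 9.14 in stomach, 7.77, 7.84 and 7.65 in pylorus and 8.16 and 7.93 in duodenum. The pylorus was the lowest tissue in all 3 pools, but by only 0.29 from the duodenum, and the contrast was -0.93 ± 0.12 (limma adjusted p = 0.00173). Rspo1, which strengthens canonical Wnt signals, was at 8.69, 8.72 and 8.96 in stomach, 7.53, 8.22 and 8.11 in pylorus and 9.12 and 9.15 in duodenum. All pyloric pools were below all neighbours. Its contrast of -1.01 ± 0.19 (limma adjusted p = 0.0229) lost the call without pylorus replicate 1 (-0.80 ± 0.19, limma adjusted p = 0.0601). It also lost it without pylorus replicate 3, stomach replicate 3 or either duodenal sample. Sfrp5, a secreted Wnt inhibitor, was at 7.27 ± 0.16, 10.09 ± 0.11 and 11.02 ± 0.02 in stomach, pylorus and duodenum, nearer to the duodenum, with a contrast of 0.95 ± 0.15 (limma adjusted p = 0.00553).

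In the FGF and retinoic acid list, 2 of 31 genes were called below the range, against 0.412% of all genes. These were Fgf13 at -0.59 ± 0.12 and Fgf20 at -0.60 ± 0.11 (limma adjusted p = 0.0285 and 0.0227). Without replicate 1, 0 of the 31 were called below it and 2 above, Fgf1 and Fgf10. Over all genes the shares were then 0.302% and 0.940%. Fgf13 belongs to the FGF family but acts inside neurons rather than as a secreted ligand. Fgf20 lay 0.03 below the duodenum, at 6.48 ± 0.10, 5.31 ± 0.10 and 5.35 ± 0.13. Fgf13 lost the call in 7 and Fgf20 in 5 of the 8 fits that left out a sample. Fgf10, a mesenchymal ligand, was at 5.74, 6.99 and 6.49 in pylorus against at most 6.16 in the neighbours and was called above the range without replicate 1, at 0.97 ± 0.14 (limma adjusted p = 0.00228). The Hedgehog list of 15 genes had 0 calls in limma and a median of -0.03. Its ligand Shh, made by the epithelium, was at 11.99 ± 0.17, 11.78 ± 0.22 and 12.79 ± 0.03, with a contrast of -0.61 ± 0.17 (limma adjusted p = 0.152). Of 21 Notch and 25 Hox genes 0 were called with all samples, with medians of -0.08 and -0.12. Without replicate 1, 1 Notch gene, Hey1, was called above the range, against 0.940% of all genes, and 0 Hox genes were called. The largest Hox contrasts were those of Hoxd3 and Hoxc4, at -0.65 ± 0.17 and -0.60 ± 0.15.

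Beyond these lists, the genes far above the nearer neighbour were of mixed kinds. Scin, an actin-severing protein, was at 7.81, 7.71 and 7.80 in stomach, 10.33, 10.58 and 10.83 in pylorus and 9.96 and 9.41 in duodenum. It had no overlap, differed little between pyloric pools and kept its call whichever sample was left out, with a contrast of 1.85 ± 0.27 (limma adjusted p = 0.00407). Pylorus minus stomach was 2.81. Pylorus minus duodenum was 0.90 and not called (limma adjusted p = 0.407), and the range test did not call Scin. Mme, the membrane peptidase neprilysin, was at 6.18, 6.21 and 6.22 in stomach, 8.02, 8.45 and 8.73 in pylorus and 7.18 and 5.15 in duodenum. The duodenal samples differed widely, and the contrast of 2.21 ± 0.46 (limma adjusted p = 0.0344) lost its call in 6 of the 8 fits that left out a sample, all but those without pylorus replicate 1 or the first duodenal sample. Skap2, an adaptor protein of Src-family kinases, was highest in pylorus replicate 1, at 12.25 against 11.51 and 11.23, and above all neighbours. Its contrast of 1.18 ± 0.25 (limma adjusted p = 0.0433) lost the call in each of the 8.

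A second set was high in pyloric replicates 2 and 3 and near the stomach level in replicate 1. St8sia4, which adds polysialic acid to cell surface proteins, was at 9.42 in replicate 1, inside the stomach's 9.28 to 9.49, and at 10.84 and 10.92 in the other pools. Its contrast rose from 1.26 ± 0.25 to 1.74 ± 0.11 without replicate 1, when it passed the range test (adjusted p = 2.35e-05, limma). Rprm, linked to cell cycle arrest, was at 10.28 in replicate 1 and 11.79 and 11.76 in the others, against at most 10.57 in stomach, and Ecel1, a membrane peptidase, was at 7.88 against 9.16 and 9.20, with at most 8.15 in stomach. Their contrasts were 1.54 ± 0.28 and 1.31 ± 0.24 (limma adjusted p = 0.0170 for both). These 3 genes lost the call when pylorus replicate 2 or 3 or either duodenal sample was left out, and St8sia4 also without any stomach sample.

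Col9a1, a chain of cartilage collagen IX, behaved likewise. It was at 8.21, 8.16 and 8.18 in stomach, 8.45, 10.31 and 10.20 in pylorus and 8.29 and 8.44 in duodenum. Replicate 1 was at the level of the highest neighbour, whereas replicates 2 and 3 stood far above. The contrast was 1.38 ± 0.34 (limma adjusted p = 0.0840) with all samples and 1.98 ± 0.22 (limma adjusted p = 0.000214) without replicate 1. Twist2, a mesenchymal factor, went from 0.65 ± 0.21 to 0.998 ± 0.15, and Tnc, the matrix protein tenascin C, from 1.16 ± 0.28 to 1.54 ± 0.25, both called only in the second fit (limma adjusted p = 0.00264 and 0.00469).

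Enteric neuron genes lay lower in the pylorus than on either side. Of 36 measured, 9 were called below the range, against 0.412% of all genes, and 0 above it. A pyloric mean below both neighbours was found for 29, against 39.0% of all genes. The list median was -0.57, and -0.47 without replicate 1, against -0.04 and -0.02 over all genes. The mean level of the list was 8.99, 8.98 and 8.95 in stomach, 8.41, 8.78 and 8.66 in pylorus and 9.20 and 9.39 in duodenum, so the pyloric pools lay below all neighbours, replicate 1 furthest. The called genes were Tubb3, Stmn3, Snap25, Syt1, Chrna3, Prph, Synpr, Scg3 and Rtn1. Leaving out pylorus replicate 3 lowered the 9 to 2, and leaving out stomach replicate 1, 2 or 3 lowered it to 6, 6 and 7. Without pylorus replicate 1 it was 7, against 0.302% of all genes, and without pylorus replicate 2 it stayed at 9. Leaving out either duodenal sample, which leaves 1 in that group, also lowered the count. The list median was then -0.54 without duodenum replicate 3 and -0.62 without the first duodenal sample.

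Tubb3, the neuronal beta-tubulin, was at 9.89, 9.86 and 9.96 in stomach, 9.03, 9.29 and 9.10 in pylorus and 9.77 and 10.17 in duodenum. The groups did not overlap, and the contrast was -0.80 ± 0.13 (limma adjusted p = 0.0112). Synpr, a synaptic vesicle protein, was at 7.34, 7.72 and 7.57, then 5.80, 6.53 and 6.32, then 7.16 and 7.26, with a contrast of -1.16 ± 0.17 (limma adjusted p = 0.00426). Syt1, the calcium sensor of transmitter release, was at 9.28, 9.20 and 9.05, then 8.37, 8.72 and 8.67, then 9.54 and 9.74, with a contrast of -0.82 ± 0.13 (limma adjusted p = 0.00542). For both, every pyloric pool was below every neighbour, and the call held whichever sample was left out. Chrna3, a nicotinic receptor subunit of autonomic neurons, had a contrast of -0.72 ± 0.13, and Snap25, a vesicle fusion protein, one of -0.72 ± 0.13 (limma adjusted p = 0.0126 and 0.0170). Stmn3, Prph, Scg3 and Rtn1 had contrasts from -0.73 to -0.54, and each lost the call in at least 6 of the 8 fits that left out a sample. Tubb3, Chrna3 and Snap25 lost the call without pylorus replicate 3 or duodenum replicate 3.

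Other genes of the enteric lineage were also low in level without being called. Ret, the receptor for GDNF on enteric progenitors and neurons, was at 10.44, 10.56 and 10.34 in stomach, 9.12, 9.98 and 9.98 in pylorus and 10.36 and 10.32 in duodenum. No samples overlapped, and the contrast was -0.70 ± 0.20 (limma adjusted p = 0.149). Phox2a, a factor of autonomic neurons, had -0.73 ± 0.20 (limma adjusted p = 0.130) and Elavl4, a neuronal RNA-binding protein, -0.52 ± 0.16 (limma adjusted p = 0.217). The list of 22 measured neurotrophic and guidance signals had 0 calls with all samples and a median of -0.08. Without replicate 1 the median was 0.04 and 2 were called higher. Of these, 1, Artn, was above the range, against 0.940% of all genes. Edn3, a peptide that promotes colonisation of the gut by crest cells, was at -0.47 ± 0.15 and Ntn1, a guidance ligand, at -0.60 ± 0.16 (limma adjusted p = 0.230 and 0.112). Unc5c, a receptor for that ligand, was above the range at 0.82 ± 0.16 (limma adjusted p = 0.0229), with pyloric levels of 9.91, 10.35 and 10.58 against duodenal levels of 9.93 and 9.85, and lost the call in 6 of the 8 fits that left out a sample.

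Of 19 genes of enteric glia and crest progenitors, 2 were called below the range, against 0.412% of all genes. Means lay below both neighbours for 12, against 39.0% of all genes, and the list median was -0.24. Without pylorus replicate 1 these counts were 1 and 11, against 0.302% and 35.6% of all genes. Fabp7, a lipid carrier of early glia, was at 11.19, 11.25 and 11.37 in stomach, 10.67, 10.73 and 10.54 in pylorus and 11.61 and 11.76 in duodenum. The 3 pyloric pools were alike and below all others, and the contrast was -0.83 ± 0.15 (limma adjusted p = 0.0141, and up to 0.0876 without pylorus replicate 3 or duodenum replicate 3). Cdh19, a cadherin of crest-derived glia, had -0.74 ± 0.14 (limma adjusted p = 0.0255), and -0.55 ± 0.13 without replicate 1 (limma adjusted p = 0.0596). Sox10, the factor that marks crest cells and glia, was at 9.49 ± 0.26, 8.96 ± 0.19 and 9.49 in stomach, pylorus and duodenum, with a contrast of -0.53 ± 0.15 (limma adjusted p = 0.156). The list means by sample show the neuronal and glial genes beside other cell types.

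**Figure D4:**
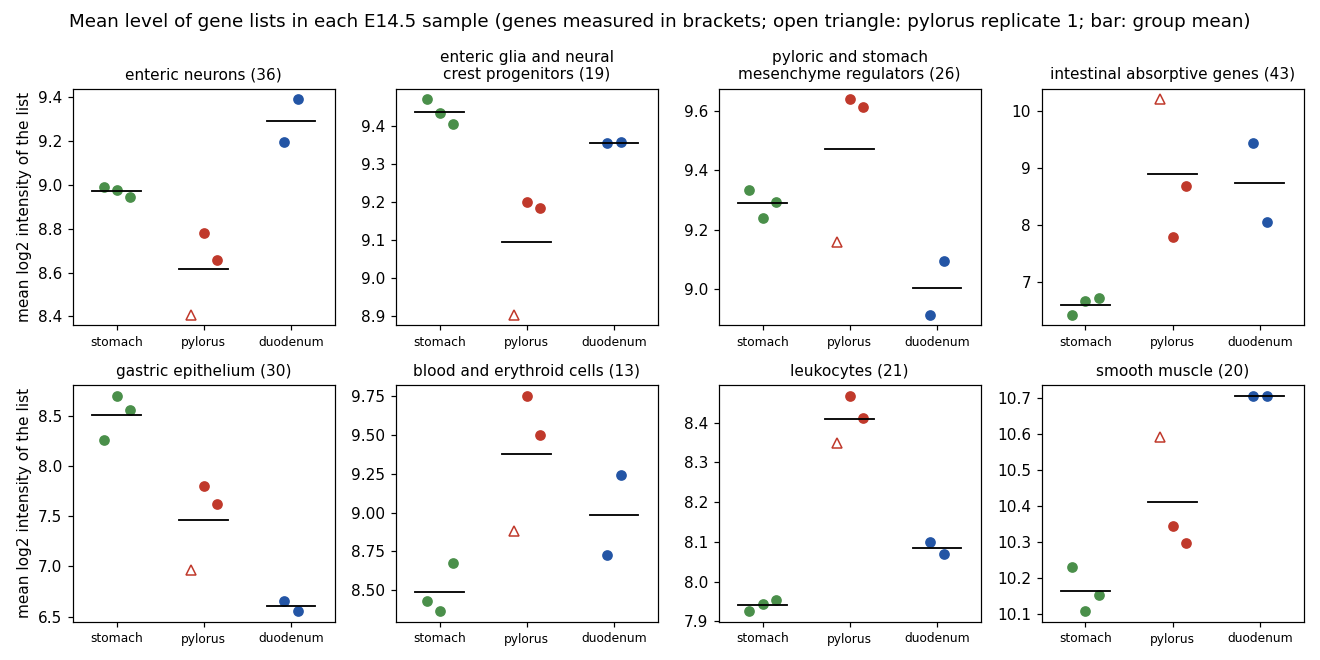
Mean log2 intensity of 8 gene lists in each E14.5 sample of stomach (green), pylorus (red) and duodenum (blue), with the number of genes measured in brackets; bars are group means and the open triangle is pylorus replicate 1. All pyloric pools lie below the neighbours for the neuron and glia lists and above them for leukocytes, and replicate 1 lies apart for the absorptive, gastric and mesenchyme lists.

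The gene furthest below the range was Mreg, melanoregulin, which acts in the movement of pigment and lysosome-related organelles. It was at 10.03, 10.38 and 10.10 in stomach, 8.42, 8.35 and 8.53 in pylorus and 9.98 and 10.26 in duodenum. The neighbours were alike, the pyloric pools lay far below both, and replicate 1 did not differ from the others. The contrast was -1.71 ± 0.21 (limma adjusted p = 0.00118, range test 0.0570), and without replicate 1 it was -1.71 ± 0.25 with a range test value of 0.0490.

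Other genes far below the range were in none of the lists. Slc6a15, a transporter of neutral amino acids, was at 9.31, 9.30 and 9.14 in stomach, 7.74, 8.76 and 8.55 in pylorus and 9.33 and 9.48 in duodenum. Shisa6, an auxiliary protein of glutamate receptors, was at 6.75, 6.97 and 6.86, then 4.88, 5.32 and 5.32, then 5.96 and 5.91. For both genes all pyloric pools were the lowest samples and replicate 1 the lowest pool. Their contrasts were -0.98 ± 0.18 and -1.23 ± 0.14 (limma adjusted p = 0.0180 and 0.000829). Scn3b, a sodium channel subunit, and Apba2, an adaptor protein that binds the amyloid precursor protein, had contrasts of -0.80 ± 0.18 and -0.75 ± 0.13 (limma adjusted p = 0.0478 and 0.0112). Slc6a15 and Apba2 lost the call without duodenum replicate 3. Scn3b lost it in each fit that left out a sample except that without pylorus replicate 2.

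Genes of other kinds also lay below. Esrrg, an orphan nuclear receptor, was at 10.01 ± 0.06 in stomach, 8.06, 7.65 and 7.61 in pylorus and 8.38 and 8.29 in duodenum. The pylorus was lowest in every pool and the duodenum was the nearer neighbour, 0.56 away. The contrast was -1.40 ± 0.17 (limma adjusted p = 0.00103). Edil3, an extracellular ligand of integrins, was at 6.84 ± 0.16, 5.99 ± 0.13 and 6.73 ± 0.04, with a contrast of -0.79 ± 0.12 (limma adjusted p = 0.00490). Both Esrrg and Edil3 lost the call when all probe sets of a gene were averaged. Tinag, a basement membrane glycoprotein, was at 7.41, 6.36 and 6.82 in pylorus against 7.89 and 7.36 in duodenum, where pylorus replicate 1 overlapped. Its contrast was -1.22 ± 0.23 (limma adjusted p = 0.0229) and -1.50 ± 0.23 without replicate 1, and it lost the call without pylorus replicate 2 or 3, stomach replicate 2 or 3 or the first duodenal sample. Rnf43 and Cltrn were called below the range only in the fit without replicate 1. Rnf43, a ligase that removes Wnt receptors, was at 7.65 in replicate 1 and at 6.34 and 6.47 in the others, and its contrast went from -0.70 ± 0.25 to -1.12 ± 0.19.

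Among intestinal epithelial genes, those with the largest called contrasts inside the range were close to the duodenal level. Called inside and higher were Cdh17, the intestinal cadherin, at 2.47 ± 0.35, the galectin Lgals2 at 2.43 ± 0.25, the glycosyltransferase B4galnt2 at 1.94 ± 0.25 and the calcium-binding S100g at 1.82 ± 0.33 (limma adjusted p from 0.000341 to 0.0161). Lgals2 was at 8.31, 8.13 and 8.38 in stomach, 13.96, 13.06 and 13.39 in pylorus and 13.88 and 13.75 in duodenum. Pylorus and duodenum overlapped and the stomach stood far below. For a gene inside the range the contrast cannot exceed the distance from the midpoint to a neighbour. Of 24 intestinal transcription factors, Cdx2, Isx and Onecut2 were called, all inside the range, at 1.79 ± 0.22, 1.70 ± 0.19 and 1.40 ± 0.16. The list median was 0.38. Over all genes 0.357% were called higher. Without replicate 1, 4 of the 24 were called higher, of which 1, Klf4, was above the range, against 0.940% of all genes. Pdx1, a factor of the antrum, pylorus, duodenum and pancreas, was at 8.28 ± 0.22, 9.23 ± 0.13 and 9.30 ± 0.19, with a contrast of 0.44 ± 0.13 (limma adjusted p = 0.194).

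Of 43 intestinal absorptive genes 2 were called above the range, Apob and Mme, against 0.236% of all genes, and 2 inside it, Cdh17 and Lgals2. Without pylorus replicate 1, 1 was called above it, Mme, against 0.940% of all genes. The list median was 1.10 with all samples. This median fell to 0.40 without pylorus replicate 1, and the number of genes with a pyloric mean above both neighbours fell from 26 to 5. The share over all genes went from 18.7% to 24.1%. The mean level of the list was 6.44, 6.67 and 6.72 in stomach, 10.21, 7.80 and 8.68 in pylorus and 9.45 and 8.05 in duodenum, so replicate 1 alone exceeded the highest duodenal sample. Apob, the protein of chylomicrons, was at 5.26, 5.43 and 5.61 in stomach, 10.31, 7.70 and 8.81 in pylorus and 8.47 and 8.03 in duodenum. Its contrast of 2.10 ± 0.46 (limma adjusted p = 0.0478) became 1.41 ± 0.39 (limma adjusted p = 0.108) without replicate 1, and the call was lost in 7 of the 8 fits that left out a sample, all but that without pylorus replicate 2. Krt20, a keratin of maturing intestinal cells, was at 5.56, 5.50 and 5.81, then 9.29, 8.33 and 8.82, then 8.55 and 8.10. It stayed called whichever sample was left out, with a contrast of 1.84 ± 0.24 (limma adjusted p = 0.00173), although pylorus and duodenum overlapped. Anxa13, an annexin of intestinal epithelium, had 1.98 ± 0.33 (limma adjusted p = 0.0112) and was inside the range without replicate 1, and it lost the call without duodenum replicate 3 (limma adjusted p = 0.0664).

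Of 30 gastric epithelial genes 3 were called lower, Atp4b below the range and Aqp4 and Cxcl15 inside it, and the median was -0.05. Over all genes 0.462% were called lower. Without replicate 1 the list had 1 call below the range, Atp4b, and 2 above it, Gast and Ctse. Over all genes the shares were then 0.302% and 0.940%. Cxcl15, a chemokine, was at 9.63, 9.68 and 9.65 in stomach, 5.27, 6.16 and 6.21 in pylorus and 5.38 and 5.16 in duodenum. The water channel Aqp4 was at 9.01, 9.22 and 9.01, then 5.58, 5.80 and 5.87, then 5.43 and 5.19. In both the pylorus was near the duodenum, and the contrasts were -1.58 ± 0.18 and -1.45 ± 0.12 (limma adjusted p = 0.000829 and 2.62e-05). Atp4b, the beta subunit of the acid pump, was at 8.36 ± 0.28, 6.69 ± 0.09 and 6.78 ± 0.14, only 0.09 below the duodenum, with a contrast of -0.88 ± 0.15 (limma adjusted p = 0.0105). On the other side, Nkx6-3, a homeobox factor of antral epithelium, was above the range. It was at 9.56, 9.57 and 9.76 in stomach, 9.51, 10.67 and 10.50 in pylorus and 8.17 and 7.76 in duodenum. Replicate 1 was at the stomach level and the others above it, with a contrast of 1.43 ± 0.24 (limma adjusted p = 0.0105). Nkx6-3 and Atp4b lost the call without pylorus replicate 3 or duodenum replicate 3 (limma adjusted p up to 0.0707 and 0.0693). Gast, the hormone gastrin of the antrum, was at 6.97, 8.31 and 8.0 in pylorus against at most 7.76 in stomach, with 1.12 ± 0.25 (limma adjusted p = 0.0517) and, without replicate 1, 1.52 ± 0.20 (limma adjusted p = 0.00102).

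Markers of blood cells were examined because such cells can be present in any of these tissues. Of 21 leukocyte genes 18 had a pyloric mean above both neighbours, against 18.7% of all genes, and the median was 0.40. Their mean level ran from 7.93 to 7.95 in stomach, 8.35 to 8.47 in pylorus and 8.07 to 8.10 in duodenum. The single called gene was Ptprc, the pan-leukocyte CD45, at 6.78, 6.81 and 6.83 in stomach, 8.11, 7.60 and 7.87 in pylorus and 7.68 and 7.21 in duodenum, with a contrast of 0.73 ± 0.12 (limma adjusted p = 0.00662). C1qa, a complement gene of macrophages, was at 8.06, 8.09 and 8.09, then 8.99, 8.55 and 8.60, then 8.31 and 8.24, without overlap, and had 0.53 ± 0.12 (limma adjusted p = 0.0634). Srgn, the proteoglycan of secretory granules in blood cells, was at 7.91, 8.14 and 8.15 in stomach, 9.0, 9.16 and 9.15 in pylorus and 8.32 and 8.36 in duodenum. Its groups did not overlap, replicate 1 was close to the other pools, and the contrast was 0.90 ± 0.15 (limma adjusted p = 0.0124, and up to 0.0707 without pylorus replicate 3 or duodenum replicate 3).

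Of 13 erythroid genes 12 had means above both neighbours, against 18.7% of all genes, with a median of 0.71 and 0 calls in limma. Their mean level ran from 8.37 to 8.67 in stomach, 8.88 to 9.75 in pylorus and 8.73 to 9.24 in duodenum. Of 16 liver genes 11 had means above both, with a median of 0.34 and 0 calls. Alb, albumin, was at 9.72, 10.72 and 10.36 in stomach, 10.52, 12.25 and 11.50 in pylorus and 10.61 and 10.91 in duodenum, where pylorus replicate 1 overlapped. Alas2, the first enzyme of haem synthesis in red cells, had a contrast of 1.27 ± 0.34 (limma adjusted p = 0.116). Without replicate 1, 4 erythroid and 3 leukocyte genes were called above the range, against 0.940% of all genes, and the erythroid median was 1.07. The part of such cells in the genes above the range was not tested.

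Of 20 smooth muscle genes 0 were called in limma and 18 had means between the neighbours, with a median of -0.03. Over all genes 7690 of 18193 lay between the neighbours. Without pylorus replicate 1, 13 of the 20 lay between the neighbours and 6 below both. Over all genes 7328 of 18193 then lay between them and 35.6% below both. The list mean was 10.23, 10.11 and 10.15 in stomach, 10.59, 10.34 and 10.30 in pylorus and 10.71 and 10.71 in duodenum. Kit, the receptor of interstitial pacemaker cells, had a contrast of -0.33 ± 0.22. Of 30 matrix and fibroblast genes, 20 general epithelial genes and 24 cell division genes 0 were called with all samples, and their medians lay at -0.10, 0.12 and -0.04. Of the matrix genes 15 had means inside the range, 10 below both neighbours and 5 above both. Over all genes the shares below and above both were 39.0% and 18.7%.

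At E16.5 the same contrast could be taken in 9 other samples, which share no tissue with those of E14.5. Of the 43 genes called above the range at E14.5, 25 (58.1%) had an E16.5 pyloric mean above both neighbours, as did 23.5% of all genes, and 19 were called above the range there, against 6.23% of all genes. Of the 75 below, 17 (22.7%) were below both at E16.5, a share near the 26.0% of all genes, and 7 were called there, against 4.19%. Without pylorus replicate 1 at E14.5 the shares in the same place were 124 of 171 (72.5%) and 24 of 55 (43.6%). Limma called a difference between the ages for 172 genes (0.945%), among them 6 of the 43 and 17 of the 75. The E14.5 contrast that selected the 43 and 75 genes is itself part of this difference. Their counts therefore cannot be compared with the share over all genes. The plot shows both contrasts.

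**Figure D5:**
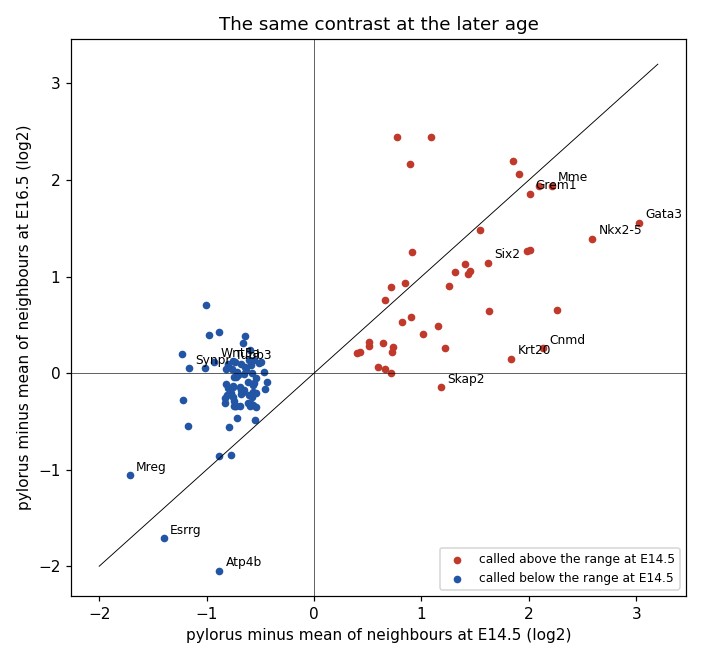
The contrast at E14.5 (x axis) and at E16.5 (y axis) in log2 units for the 43 genes called above (red) and 75 called below (blue) the range at E14.5; the line marks equal values. Most red points stay above 0 at E16.5, while the blue points gather around 0, with Mreg, Esrrg and Atp4b among the exceptions. A contrast below 0 does not place the pylorus below both neighbours, and for Atp4b its E16.5 mean was above that of the duodenum.

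At E16.5 Grem1, at 1.86 ± 0.28, and Gata3, at 1.55 ± 0.30, were called with pyloric means above both neighbours (limma adjusted p = 0.00113 and 0.00499). Scin at 2.20 ± 0.26, Mme at 1.94 ± 0.44 and Six2 at 1.14 ± 0.18 were also called (limma adjusted p from 0.000203 to 0.0122), but from inside the range. Pylorus minus duodenum was -0.57 for Scin and -1.40 for Mme, and pylorus minus stomach was -0.07 for Six2. For Gata3 the E16.5 contrast minus that of E14.5 was -1.47, which was not called (limma adjusted p = 0.0967). Col9a1, called at E14.5 only without replicate 1, stood at 2.79 ± 0.32 (limma adjusted p = 0.000185), and Isl1 at 1.58 ± 0.29 (limma adjusted p = 0.00362). The Isl1 contrast came from the duodenal side, with pylorus minus duodenum at 3.15 and pylorus minus stomach at 0.01. Of the genes below, Esrrg stood at -1.71 ± 0.16, Mreg at -1.06 ± 0.20 and Edil3 at -0.56 ± 0.12 (limma adjusted p from 2.56e-05 to 0.00716). These contrasts came mainly from the stomach side, where pylorus minus stomach was -3.19, -2.10 and -0.86. Pylorus minus duodenum was -0.23, -0.01 and -0.26, and none of these was called (limma adjusted p from 0.135 to 0.970). The neuronal genes Tubb3, Synpr, Syt1, Chrna3 and Snap25 had E16.5 contrasts from -0.04 to 0.10, none called, and their pyloric means lay between those of the neighbours. Tubb3 was at 8.51 ± 0.16 in stomach, 7.97 ± 0.25 in pylorus and 7.25 ± 0.24 in duodenum at E16.5. The pylorus was lower than the stomach by limma for Tubb3 (-0.53), Chrna3 (-0.48) and Snap25 (-0.56), with adjusted p from 0.0115 to 0.0226. It was higher than the duodenum for the same genes, by 0.72, 0.39 and 0.58 (limma adjusted p from 0.00156 to 0.0372). For Tubb3, Synpr and Syt1 the difference between the ages was called, and for Chrna3 and Snap25 it was not (limma adjusted p = 0.0699 and 0.0663).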

How the data were processed

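The authors deposited a table of log2 probe-set intensities. GCOS and RMA are the tools named in the submitters' processing notes. Tool versions and the number of RMA runs behind the table are details not given in the sources used here. No scaling was added. Log2 values ran from 3.55 to 15.22, with array medians from 6.75 to 6.92. Of 45101 probe sets, 34945 carried 1 gene symbol in the array annotation, 932 several and 9160 none, and 64 were controls. Each gene was represented by its brightest probe set on average over the 18 arrays. Symbols of 34741 probe sets were found in RefSeq (GRCm38.p6), and 0 were changed.

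The 17 samples were fitted gene by gene in limma 3.58.1 (R 4.3.3), each of the 6 groups having its own mean. Variances were moderated with eBayes, with 11 degrees of freedom from the residuals and 3.95 from the prior. P-values were adjusted by Benjamini-Hochberg over all genes, and an adjusted p under 0.05 made a call. The range test doubled the larger of the 2 one-sided p-values. The spread is shared over all groups, so E16.5 samples bear on E14.5 p-values. The number of arrays limits precision, and the spread between pools may be partly technical. The fit was tested on simulated data.

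The comparison and the gene lists were chosen with earlier results of these data known. Named genes were up to 12 genes above and 12 below the range by distance beyond the nearer neighbour, up to 8 of each without pylorus replicate 1, up to 4 called members of a list (the 2 largest contrasts where fewer than 2 were called), all past the range test, the 4 highest and 4 lowest called inside the range, and markers. Clone and predicted-gene names were passed over. Stmn3, Snap25, Prph, Scg3, Anxa13, Krt20, Nkx6-3, Tlx1, Twist2, Gast, Scx, Unc5c, Col2a1, Phox2a, Elavl4, Fgf10 and C1qa were chosen after their values were seen. Alternatives were other uses of the 2 alike duodenal arrays, E14.5 groups alone, averaging all probe sets of a gene, a low-value filter at log2 7, quantile normalization, median centring, eBayes with trend and robust, array quality weights, a replicate block, equal weights for neighbour samples, and each sample left out in turn.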

Additional observations from a re-analysis of the deposited data

Results flagged for a closer look

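The contrast of pylorus with its neighbours differed between E14.5 and E16.5 for 14 of the genes named, by limma's test of the difference itself. Values are the E16.5 contrast minus the E14.5 contrast ± SE, and no group had the 4 samples needed to look for a lone outlying sample. Above the range at E14.5, the differences were -1.20 ± 0.22 for Nkx2-5 (limma adjusted p = 0.0232), -1.88 ± 0.36 for Cnmd (limma adjusted p = 0.0255) and -1.69 ± 0.34 for Krt20 (limma adjusted p = 0.0296). Nkx2-5 still stood at 1.39 ± 0.16 at E16.5, whereas Cnmd was at 0.26 ± 0.25 and Krt20 at 0.15 ± 0.23.

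The neuronal genes differed in the other direction, by 1.21 ± 0.24 for Synpr, 0.89 ± 0.19 for Tubb3, 0.86 ± 0.17 for Syt1 and 1.01 ± 0.22 for Elavl4 (limma adjusted p from 0.0286 to 0.0487). The difference was 1.37 ± 0.25 for Slc6a15 and 1.42 ± 0.20 for Shisa6 (limma adjusted p = 0.0193 and 0.00514). Slitrk4 had 0.86 ± 0.14 (limma adjusted p = 0.0137), with levels at E14.5 of 7.53 in stomach, 7.94 in pylorus and 9.64 in duodenum, and of 6.71, 7.16 and 7.18 at E16.5. For the signals Wnt5a and Shh the differences were 1.04 ± 0.17 and 1.49 ± 0.24 (limma adjusted p = 0.0137 for both), and Shh was called higher than the mean of its neighbours at E16.5, at 0.88 ± 0.17.

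Gastric genes differed in opposite directions. Cxcl15 had a difference of 2.80 ± 0.26 (limma adjusted p = 0.000276), from -1.58 at E14.5 to 1.22 at E16.5. Atp4b had -1.16 ± 0.20 (limma adjusted p = 0.0160), from -0.88 to -2.04. Its mean level went from 8.36 to 12.16 in stomach, 6.69 to 7.67 in pylorus and 6.78 to 7.27 in duodenum. At E16.5 the pylorus thus lay inside the range.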

How the results depend on the processing

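With 2 duodenal and 3 other samples per group, single pools moved the counts: leaving out each sample in turn gave 48 to 264 called genes, 15 to 171 above the range, 18 to 78 below it, 1 to 21 past the range test and 68 to 287 with a difference between ages. The lowest counts outside the range came without duodenum replicate 3 (15 and 18), which leaves 1 duodenal sample assumed to vary like the other groups, and pylorus replicate 3 (18 and 28). Without stomach replicates 1, 2 and 3 the counts above were 26, 26 and 28, and those below were 45, 41 and 51. Without the first duodenal sample 40 lay below. Nkx2-5 passed the range test in all 8 of these fits. With E14.5 groups alone that test called Nkx2-5 and Mreg, and after quantile normalization Nkx2-5 and Gata3. Array quality weights, which gave pylorus replicate 1 a weight of 0.214, raised the counts to 1182 called, 553 above, 492 below, 68 past the range test and 1155 with an age difference. Counting the first 2 duodenal arrays as 2 samples gave 113 below and 429 with an age difference. Deviations of same-numbered arrays from their group means had correlations from -0.436 to 0.311, with no common sign. The alike duodenal arrays and pylorus replicate 1 bear on these values, which therefore cannot show whether pools were paired. The numbers were not taken as pairs. A replicate block, with the first 2 duodenal arrays as 2 samples, gave 221 called, 72 above and 111 below. It gave 4 past the range test and 553 with an age difference. Median centring moved the split of higher and lower calls from 65 and 84 to 59 and 93. Of 96 genes tracked, 58 were called, 26 of them in every fit without a sample, and 0 of the 58 reversed. Fitting E14.5 alone lost 22 of the calls. Averaging all probe sets of a gene lost 6, those of Esrrg, Edil3, Snap25, Prph, Apob and Unc5c, and added 3. Contrasts of 7 uncalled genes changed sign: Sox9 (0.083 with array weights, -0.26 to 0.12 with samples left out), Sox2 (0.24, -0.72 to 0.33), Acta2 (-0.005 after median centring, -0.003 to 0.042), Nkx2-3 (-0.03 to 0.76), Nkx3-2 (-0.044 to 0.20), Cdh1 (-0.14 to 0.022) and Tlx1 (-0.14 to 0.05). The cause of these changes was not tested. The low-value filter left 11558 genes, and 10 of the 96 had no value under it.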
